A study of Homo sapiens with 16 samples.

Results

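The 40 genes described here are the 19 WNT ligand genes, the 10 frizzled receptors, the co-receptors LRP5 and LRP6, the receptors ROR1, ROR2 and RYK, the ligand secretion genes PORCN and WLS, the polarity genes VANGL1 and VANGL2, and the secreted antagonists SFRP1 and SFRP5. They were chosen by gene family and matched by symbol, and all 40 had a row among the 26485 gene symbols of the count files. The libraries were of polyadenylated RNA from SW480 and SW620, established colon cancer lines that were grown from a primary tumour and a lymph node metastasis of the same patient and that both carry a truncated APC. There were 4 groups of 4 libraries, each at passage 6. SW620 dnLEF1 and SW480 dnLEF1 carried dnLEF1, a dominant negative LEF1 without the beta-catenin binding domain, and were described in the labels as Wnt inhibited. SW620 GFP and SW480 GFP carried GFP as the mock control and were described as Wnt high. The sources used here do not say how either construct was delivered, whether a line was 1 clone, how long it had carried the construct, or whether a group's libraries were grown apart. The p-values thus rest on the variation among these libraries, part or all of which may be technical.

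Wnt ligands are acylated by PORCN in the endoplasmic reticulum and carried to the cell surface by WLS. They bind frizzled receptors, either together with LRP5 or LRP6, which stabilises beta-catenin and lets it activate genes with TCF and LEF factors, or with ROR and RYK receptors and VANGL proteins in branches that act on cell shape and polarity without beta-catenin. SFRP proteins bind ligands outside the cell. In the intestine the pathway keeps crypt stem cells dividing, and loss of APC turns the beta-catenin branch on below the receptors. A dominant negative LEF1 blocks that branch at the genes it switches on and not at the receptors.

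Library depth ran from 17181204 to 26153506 counts assigned to genes. In SW620 GFP replicate 3, 50.5% of all counts were in lines that name no gene, against at most 24.3% in any other library, so values without that library are given where they differ. Replicates 2 and 3 were much closer to each other than any other pair in both SW480 groups, with a chi-square per degree of freedom of 2.33 in SW480 dnLEF1 and 1.99 in SW480 GFP, against 4.37 to 22.2 for every other pair of a group. They still differed by more than sampling noise, which gives about 1, and were kept as separate libraries. With each of these pairs summed to 1 library, an alternative chosen after seeing the data, 8 of the 40 genes rose and 12 fell in SW480, against 10 and 12 with 4 libraries a group, and the lost calls were those of FZD4 and WLS. LEF1, whose reads include those of the construct, stood at 23.3 ± 2.35 CPM (depth-scaled counts, TMM, on 1 scale for all 16 libraries; mean and SD, n = 4) in SW620 dnLEF1 and 3.36 ± 0.501 CPM in SW620 GFP, and at 246 ± 49.1 CPM in SW480 dnLEF1 and 51.7 ± 1.89 CPM in SW480 GFP. AXIN2, a feedback target of the pathway, did not pass the test in SW620, with 320 ± 11.2 CPM in dnLEF1 and 333 ± 14.7 CPM in GFP libraries (edgeR adjusted p = 0.607), and it fell to 69.8 ± 4.49 CPM in SW480 dnLEF1, against 550 ± 11.2 CPM in SW480 GFP (edgeR adjusted p = 1.22e-12). Of 12 colon epithelium markers, 7 had a mean of at least 1 CPM in both SW620 groups, 6 in SW480 dnLEF1 and 8 in SW480 GFP. CDX1 was at 0 in both SW620 groups and in SW480 dnLEF1, and CDH17 was at 0 in SW480 dnLEF1.

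In SW620, 25 of the 40 genes had enough counts to be tested, and 3 rose with dnLEF1 (WNT6, FZD10 and WLS), 3 fell (WNT10A, WNT11 and FZD6) and 19 did not pass an edgeR adjusted p of 0.05. Of all genes tested in SW620, 6.03% rose and 2.43% fell, together 8.46%. In SW480, 32 were tested, and 10 rose (WNT9A, FZD1, FZD2, FZD4, FZD6, FZD7, FZD9, ROR1, PORCN and WLS), 12 fell (WNT5A, WNT5B, WNT6, WNT7A, WNT11, WNT16, FZD3, FZD8, FZD10, LRP6, VANGL2 and SFRP5) and 10 did not pass the test. Of all genes tested in SW480, 24.2% rose and 24.4% fell, together 48.5%, so a call there is common in itself. The median log2 fold change of the genes tested was -0.04 in SW620 and 0.04 in SW480, against -0.004 and -0.001 over all genes, since rises and falls were about equal in number. Without SW620 GFP replicate 3 the SW620 counts were 3 higher and 2 lower, the lost call being that of WNT10A.

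More of these genes differed between the GFP libraries of the lines than with dnLEF1 in either line; each GFP group also serves as the control of its own line, so the comparisons share libraries. Of 31 genes tested, 10 were higher in SW620 GFP than in SW480 GFP, 20 were lower and only VANGL1 did not pass the test, at 58.8 ± 2.04 and 59.5 ± 3.41 CPM. Of all genes tested between the GFP groups, 37.7% were higher and 40.3% lower, together 78.0%. The median log2 fold change was -1.15 for these genes and -0.02 over all genes. The effect of dnLEF1 itself differed between the lines (interaction, SW620 effect minus SW480 effect, in 1 fit of all 16 libraries) for 12 of 33 genes tested. It was higher for 6 (WNT5B, WNT6, FZD3, FZD7, FZD10 and SFRP5) and lower for 6 (WNT10A, WNT10B, FZD2, FZD6, ROR1 and PORCN), where 28.5% of all genes passed, 16.2% higher and 12.3% lower. The 33 include WNT5A, WNT7A, WNT9A, WNT16, FZD8 and ROR2, which had 0 to 5 counts in each SW620 group. For these the lack of a call does not show equal effects. Of 40 genes, 7 were tested in no comparison: WNT1, WNT2, WNT2B, WNT3A, WNT8A, WNT9B and SFRP1. In cultured lines, fewer cells that express a gene and less RNA of it per cell cannot be told apart in any of these values.

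**Figure D1:**
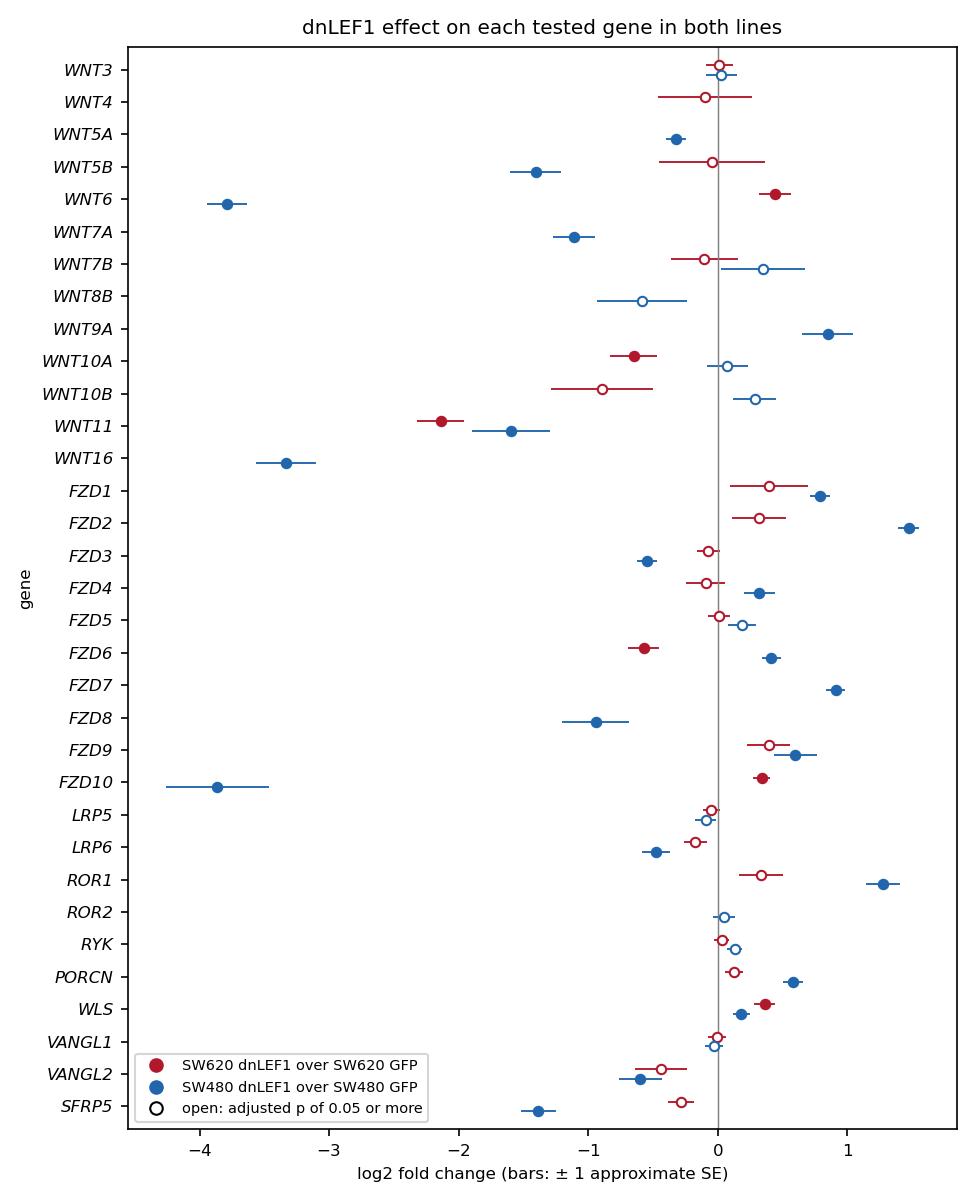
Log2 fold change of each tested gene with dnLEF1 over GFP in SW620 (red) and SW480 (blue), on the x axis, with ± 1 approximate SE. Filled points have an edgeR adjusted p below 0.05. WNT11 lies left of 0 in both lines, and WNT6, FZD10 and FZD6 lie on opposite sides of 0, all with filled points.

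The leading ligand gene and the shares of the ligands differed between the lines. Scaled for exon length, the 19 ligands summed to 10.9 ± 1.59 CPM per kb in SW620 dnLEF1, 11.5 ± 0.693 CPM per kb in SW620 GFP, 44.4 ± 3.33 CPM per kb in SW480 dnLEF1 and 79.5 ± 4.09 CPM per kb in SW480 GFP. WNT6 held 61.2% ± 2.45 of the sum in SW620 dnLEF1 and 42.8% ± 1.76 in SW620 GFP (SD, n = 4 each). In SW480 the leading ligand was WNT5A, with 73.3% ± 2.63 of the sum in dnLEF1 and 51.5% ± 4.92 in GFP libraries, followed in SW480 GFP by WNT6 at 33.6% ± 4.13. WNT6 held 4.35% ± 0.924 in SW480 dnLEF1, where its range overlapped that of WNT3 and stood below that of WNT10A. In SW620 GFP the ligands that followed WNT6, namely WNT11, WNT3 and WNT10A, had levels of 2.11, 1.99 and 1.59 CPM per kb, and the ranges of neighbours in that order overlapped. In SW620 dnLEF1 the order was WNT6, WNT3, WNT10A and WNT11, with no overlap between neighbours.

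**Figure D2:**
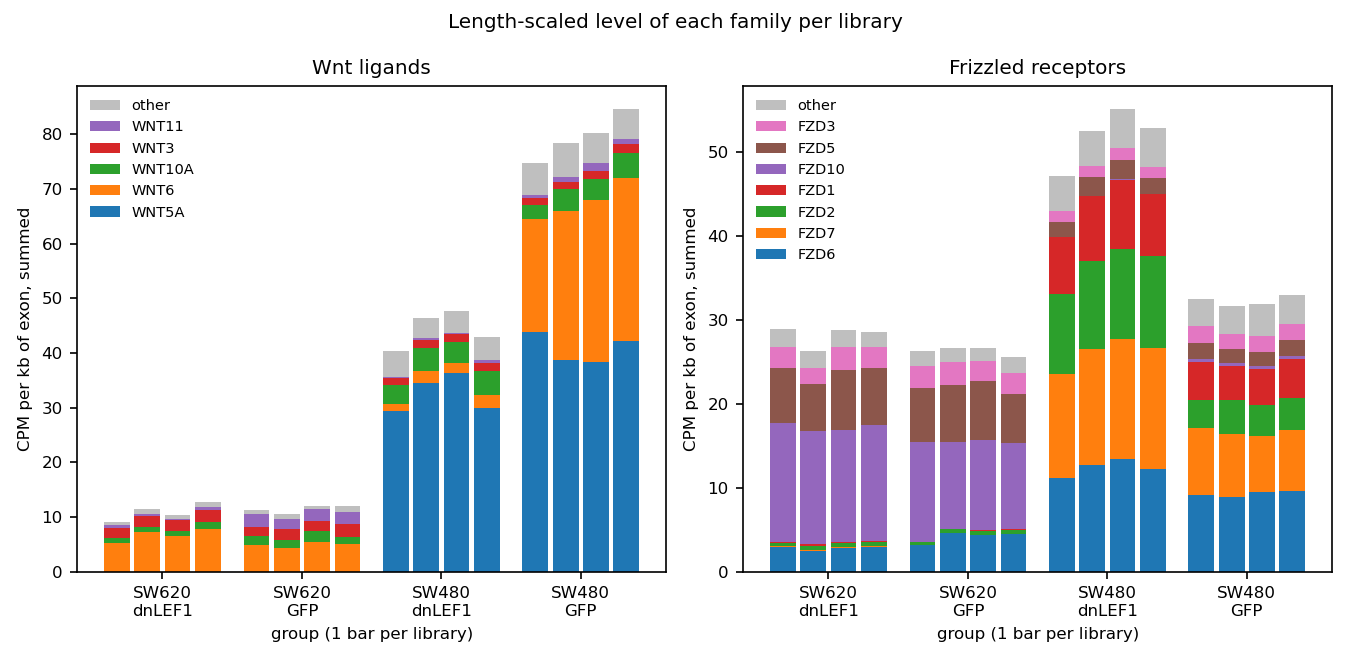
Summed level of the 19 Wnt ligands (left) and 10 frizzleds (right) in CPM per kb of exon, with 1 bar per library and a colour per gene. The ligand bars of SW480 are mostly WNT5A and, in GFP libraries, WNT6, and the frizzled bars of SW620 are mostly FZD10 and FZD5, while those of SW480 are mostly FZD6, FZD7, FZD2 and FZD1.

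WNT6, a ligand known for inducing neural crest in chick embryos, is on chromosome 2 at 218859805 to 218874233 on hg38, plus strand. WNT10A, mutated in human disorders of teeth and skin appendages, is the next gene, at 218880852 to 218899581 on the same strand, 6.62 kb away with no protein-coding gene between them. The promoters of this pair are shown because the neighbours moved unlike each other. That of WNT16 is shown because it fell the most among ligands after WNT6 in SW480. The WNT3 promoter is shown because it held the only match to a LEF/TCF motif among the 36 promoters searched. The sequences are from RefSeq on GRCh38.p14, 5′ to 3′ on the gene's strand, from 250 bases before to 50 bases after the RefSeq start, at chr2:218859555-218859854 (plus) for WNT6, chr2:218880602-218880901 (plus) for WNT10A, chr7:121328750-121329049 (plus) for WNT16 and chr17:46818643-46818942 (minus) for WNT3. The RefSeq starts of WNT16 and WNT3 lie inside the GENCODE gene. Capitals mark the motif match.
WNT6: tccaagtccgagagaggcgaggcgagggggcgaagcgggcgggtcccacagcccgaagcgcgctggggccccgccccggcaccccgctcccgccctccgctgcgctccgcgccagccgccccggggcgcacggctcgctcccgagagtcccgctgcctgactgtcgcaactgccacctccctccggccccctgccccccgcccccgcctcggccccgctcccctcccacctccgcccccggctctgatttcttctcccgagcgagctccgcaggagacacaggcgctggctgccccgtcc
WNT10A: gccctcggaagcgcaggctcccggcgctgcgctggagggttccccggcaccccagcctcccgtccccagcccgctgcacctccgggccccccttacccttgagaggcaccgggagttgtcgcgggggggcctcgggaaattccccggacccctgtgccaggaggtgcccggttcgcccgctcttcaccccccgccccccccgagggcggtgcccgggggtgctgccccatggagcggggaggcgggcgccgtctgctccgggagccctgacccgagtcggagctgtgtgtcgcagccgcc
WNT16: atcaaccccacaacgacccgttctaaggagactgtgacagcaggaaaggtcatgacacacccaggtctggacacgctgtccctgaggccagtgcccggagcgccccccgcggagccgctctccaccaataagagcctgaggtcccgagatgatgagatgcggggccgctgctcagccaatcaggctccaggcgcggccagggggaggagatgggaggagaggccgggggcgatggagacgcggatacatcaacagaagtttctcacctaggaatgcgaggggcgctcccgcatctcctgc
WNT3: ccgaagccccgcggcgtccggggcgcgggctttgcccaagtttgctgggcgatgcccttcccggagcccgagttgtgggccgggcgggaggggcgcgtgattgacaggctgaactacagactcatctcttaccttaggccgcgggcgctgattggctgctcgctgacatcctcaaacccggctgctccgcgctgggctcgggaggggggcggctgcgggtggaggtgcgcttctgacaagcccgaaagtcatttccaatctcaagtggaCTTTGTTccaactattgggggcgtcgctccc

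RefSeq promoters were matched for 30 of the 40 symbols, 36 promoters in all. WNT7B, WNT10B, WNT11, FZD2, FZD3, FZD6, FZD7, FZD10, LRP6 and SFRP1 had no matched promoter and were not searched. The matched promoters are described here. They were searched on both strands for 4 motifs bound by LEF and TCF factors, written CTTTGAA in the first form, CTTTGAT in another form, CTTTGTA in another form and CTTTGTT in the last form, which cannot overlap on 1 strand. A match stood in 1 of 36 promoters, that of WNT3 (CTTTGTT), against 4829 of 35116 promoters of the same length (13.75%). G and C made up 45.67% (WNT8B) to 86.67% (LRP5) of the windows of these genes, and the comparison was not matched for this. Windows of the same gene can overlap, as those of WLS do. The search covers these letters in these windows only and is a description, not a map of sites.

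In SW620, WNT6 had 9.05, 12.5, 11.2 and 13.3 CPM in dnLEF1 libraries and 8.25, 7.47, 9.42 and 8.76 CPM in GFP libraries. The ranges overlapped, and the log2 fold change was 0.44 ± 0.13 (edgeR adjusted p = 0.0422). The call was lost in 8 of 15 alternatives, with adjusted p from 0.0504 to 0.154, namely limma voom, 1 fit of all 16 libraries, and leaving out GFP replicate 1, 2 or 4 or dnLEF1 replicate 2, 3 or 4. In SW480, WNT6 had 2.27, 3.56, 3.41 and 4.08 CPM in dnLEF1 libraries and 35.5, 46.9, 51.0 and 51.1 CPM in GFP libraries. Every dnLEF1 library was far below every GFP library, and WNT6 fell 13.8-fold (log2 fold change -3.79 ± 0.16, edgeR adjusted p = 1.44e-10). The effects differed by 4.24 ± 0.22 on the log2 scale (interaction, edgeR adjusted p = 4.81e-12). In the GFP libraries WNT6 was 5.47-fold lower in SW620 than in SW480 (edgeR adjusted p = 1.24e-10).

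WNT10A went the other way in SW620. It had 2.52, 2.58, 2.71 and 3.94 CPM in SW620 dnLEF1 and 4.90, 4.38, 5.64 and 3.71 CPM in SW620 GFP. Replicate 4 of dnLEF1 was the highest of its group and lay above replicate 4 of GFP, so the ranges overlapped. The log2 fold change was -0.65 ± 0.18 (edgeR adjusted p = 0.0399), a call lost in 7 of 15 alternatives with adjusted p of up to 0.123, namely in 1 fit of all 16 libraries and without GFP replicate 1, 2 or 3 or dnLEF1 replicate 1, 2 or 3. In SW480, WNT10A did not pass the test, with 11.4 ± 1.28 CPM in dnLEF1 and 10.9 ± 2.70 CPM in GFP libraries (log2 fold change 0.07 ± 0.16, edgeR adjusted p = 0.726). The interaction was -0.71 ± 0.26 (edgeR adjusted p = 0.0443), and this call was lost in 13 of 23 alternatives: in limma voom, with SW480 replicates 2 and 3 summed, and without SW620 GFP replicate 1, 2 or 3, SW620 dnLEF1 replicate 1, 2 or 3, SW480 GFP replicate 1, 2 or 3, or SW480 dnLEF1 replicate 2 or 4.

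WNT11, a ligand of the branch without beta-catenin that drives cell movements in zebrafish and frog embryos, fell in both lines. In SW620 it had 1.29, 1.23, 0.787 and 1.29 CPM in dnLEF1 libraries and 5.26, 4.43, 5 and 5.36 CPM in GFP libraries. The groups did not overlap, and the log2 fold change was -2.14 ± 0.18 (edgeR adjusted p = 4.32e-06), the largest change among the ligands and receptors tested in SW620. In SW480, WNT11 had 0.7, 0.593, 0.505 and 0.972 CPM in dnLEF1 libraries and 1.30, 2.15, 3.10 and 1.92 CPM in GFP libraries, again without overlap (log2 fold change -1.60 ± 0.30, edgeR adjusted p = 0.000553). The difference in effect, SW620 minus SW480, was -0.54 ± 0.36 and did not pass the test (edgeR adjusted p = 0.292). In the GFP libraries WNT11 was 2.38-fold higher in SW620 (edgeR adjusted p = 6.78e-05).

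WNT5A, the ligand that signals through ROR2, was measured at high levels in SW480 and hardly at all in SW620. It had 0 counts in all 4 SW620 dnLEF1 libraries and 2 counts in SW620 GFP, both in replicate 4. In SW480, WNT5A had 210, 247, 259 and 215 CPM in dnLEF1 libraries and 314, 277, 275 and 302 CPM in GFP libraries. The SW480 groups did not overlap, and the fall with dnLEF1 was 1.25-fold (log2 fold change -0.32 ± 0.08, edgeR adjusted p = 0.00357). Between the GFP groups the ratio of SW480 over SW620 counts, scaled for depth, was 12435 (95% exact interval 3442 to 102687, counting error only). In SW480 the 24 tested genes nearest to WNT5A also had a median log2 fold change of -0.28, with 16 of 24 lower, and their part in the fall of WNT5A was not tested. WNT5B, its close relative, had 0.445, 0.737, 0.236 and 0.539 CPM in SW620 dnLEF1 and 0.227, 0.461, 0.639 and 0.625 CPM in SW620 GFP, which overlapped throughout (edgeR adjusted p = 0.971). In SW480, WNT5B had 1.71, 1.27, 1.26 and 1.90 CPM in dnLEF1 libraries and 3.24, 5.01, 3.95 and 4.10 CPM in GFP libraries, a fall without overlap (log2 fold change -1.41 ± 0.20, edgeR adjusted p = 4.49e-05). The difference between the lines for WNT5B was 1.37 ± 0.44 (edgeR adjusted p = 0.0255), lost with SW480 replicates 2 and 3 summed and without SW620 GFP replicate 1 or SW620 dnLEF1 replicate 2 or 4, with adjusted p of 0.0511 to 0.0697. WNT5B overlaps FBXL14 on the other strand, which had 16.5 CPM in SW480 dnLEF1 and 18.5 CPM in SW480 GFP, and without the strand setting reads of the pair cannot be told apart.

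WNT7A, known in mice for limb, reproductive tract and synapse development, had no count in any SW620 library. In SW480, WNT7A had 2.41, 2.03, 2.19 and 1.62 CPM in dnLEF1 libraries and 4.70, 4.87, 4.38 and 3.92 CPM in GFP libraries, so that all dnLEF1 values lay below all GFP values (log2 fold change -1.11 ± 0.16, edgeR adjusted p = 6.53e-05). Against a floor of 3 counts over the SW620 GFP group it was at least 127-fold lower in SW620 GFP than in SW480 GFP. WNT16, known in mice for the thickness of cortical bone, had 2 counts in SW620 dnLEF1 and 4 in SW620 GFP. In SW480, WNT16 had 0.219, 0.466, 0.589 and 0.509 CPM in dnLEF1 libraries and 4.15, 5.19, 4.67 and 4.24 CPM in GFP libraries. That is a 10.1-fold fall without overlap (log2 fold change -3.33 ± 0.23, edgeR adjusted p = 3.84e-08). Its fold change in SW620 against SW480 GFP was -6.44 ± 0.37 on the log2 scale (edgeR adjusted p = 7.98e-10) on 4 counts in SW620.

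WNT9A, which shapes joints in mice, was the only ligand that rose in SW480. It had 6.74, 4.4, 5.13 and 5.14 CPM in dnLEF1 libraries and 4.19, 2.37, 2.62 and 2.64 CPM in GFP libraries. GFP replicate 1 came close to the lowest dnLEF1 library but did not reach it (log2 fold change 0.85 ± 0.20, edgeR adjusted p = 0.00257). In SW620 it had 3 counts in dnLEF1 and 2 in GFP libraries, and the ratio of SW480 GFP over SW620 GFP was 127 (95% exact interval 34.9 to 1057). WNT10B, an inhibitor of fat cell formation in mice, had 0.198, 0.614, 0.275 and 0.373 CPM in SW620 dnLEF1 and 0.862, 0.553, 0.373 and 0.804 CPM in SW620 GFP. The ranges overlapped and the fall did not pass the test (log2 fold change -0.89 ± 0.39, edgeR adjusted p = 0.220). In SW480, WNT10B had 3.94, 3.47, 2.86 and 3.70 CPM in dnLEF1 libraries and 3.40, 2.77, 2.90 and 2.37 CPM in GFP libraries, with overlap (log2 fold change 0.29 ± 0.17, edgeR adjusted p = 0.174). The difference between those effects was -1.18 ± 0.40 (edgeR adjusted p = 0.0303). It was lost without SW620 GFP replicate 1 or 4, SW620 dnLEF1 replicate 1 or 3, or SW480 GFP replicate 4, with adjusted p of up to 0.0847.

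The remaining ligands were not called with dnLEF1 in either line, and not all of them were tested. WNT3, which Paneth cells supply to stem cells in the mouse intestine, was the steadiest of the well measured ligands, at 10.8 ± 0.993 CPM in SW620 dnLEF1 and 10.7 ± 1.14 CPM in SW620 GFP, and at 7.93 ± 0.758 CPM in SW480 dnLEF1 and 7.80 ± 0.898 CPM in SW480 GFP. It was 1.37-fold higher in SW620 GFP than in SW480 GFP (edgeR adjusted p = 0.00255). WNT9B had at most 2 counts in any group. Its GENCODE gene lies 46 bp from that of WNT3, on the other strand, while the RefSeq starts of the pair lie farther apart. WNT7B was 3.21-fold higher in SW620 GFP, at 1.47 ± 0.319 CPM, against 0.455 ± 0.0457 CPM in SW480 GFP (edgeR adjusted p = 3.55e-05). WNT4 had 27 to 37 counts and WNT8B 10 to 67 counts per group. With dnLEF1, WNT4 was tested only in SW620 and WNT8B only in SW480. WNT8B was not tested between the GFP groups because of its 11 counts in SW620 GFP, against 67 in SW480 GFP, and was called lower in SW620 in 10 alternatives. Of the 6 ligands never tested, WNT2B had 9 to 22 counts per group and WNT1, WNT2, WNT3A, WNT8A and WNT9B had 0 to 19. With no low-count filter WNT3A was called lower in SW620 GFP, with 0 counts, than in SW480 GFP, with 7 (edgeR adjusted p = 0.0323), the single call among these 6. A low count does not show that a gene is off.

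**Figure D3:**
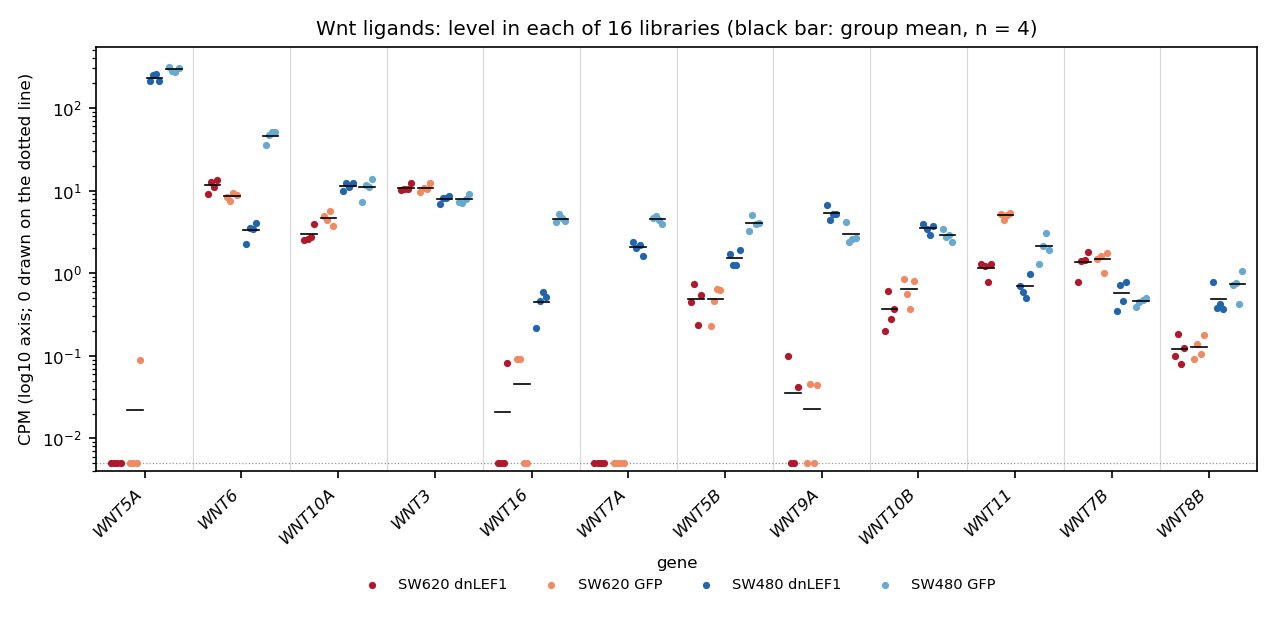
CPM of 12 Wnt ligands in each library on a log10 axis, with a bar at each group mean and values of 0 drawn on the dotted line. WNT5A, WNT16, WNT7A and WNT9A stand at or near 0 in SW620, and WNT11 is lower in dnLEF1 than in GFP libraries of both lines.

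The frizzleds, the main receptors of these ligands, also differed by line. Scaled for length, they summed to 28.2 ± 1.25 CPM per kb in SW620 dnLEF1, 26.3 ± 0.532 CPM per kb in SW620 GFP, 51.9 ± 3.37 CPM per kb in SW480 dnLEF1 and 32.3 ± 0.591 CPM per kb in SW480 GFP. In SW620, FZD10 led with 48.7% ± 2.26 of the sum in dnLEF1 and 41.2% ± 2.75 in GFP libraries, followed by FZD5 at 23.1% ± 1.73 and 24.6% ± 1.49. In SW480 dnLEF1, FZD7 at 26.5% ± 0.618 and FZD6 at 23.8% ± 0.593 led, and their ranges in CPM per kb overlapped. In SW480 GFP, FZD6 led at 28.8% ± 0.756, above FZD7 at 22.7% ± 1.41 without overlap. FZD10 was last of 10 in both SW480 groups.

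FZD10 is an intronless gene on chromosome 12 at 130162459 to 130165740, plus strand. It had 46.4, 44.5, 43.6 and 45.3 CPM in SW620 dnLEF1 and 39.0, 34.2, 35.2 and 33.7 CPM in SW620 GFP. All dnLEF1 libraries were above all GFP libraries, by a small amount (log2 fold change 0.34 ± 0.06, edgeR adjusted p = 0.00338). In SW480, FZD10 had 0.131, 0.0423, 0.0421 and 0.0463 CPM in dnLEF1 libraries and 0.987, 0.984, 1.19 and 0.957 CPM in GFP libraries, from 6 and 93 counts in all. FZD10 fell there without overlap (log2 fold change -3.86 ± 0.40, edgeR adjusted p = 2.11e-06). The effect in SW620 less that in SW480 was 4.2 ± 0.30 (edgeR adjusted p = 1.04e-09). In the GFP libraries FZD10 was 34.2-fold higher in SW620 (edgeR adjusted p = 2.26e-14).

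FZD7, a receptor of intestinal stem cells in mice, had the opposite distribution. In SW620 it had 0.346, 0.491, 0.472 and 0.207 CPM in dnLEF1 libraries and 0, 0, 0.106 and 0 CPM in GFP libraries, from 32 counts in dnLEF1 and 2 in GFP, both in replicate 3. Those counts were too few for the test within SW620, and the ratio of dnLEF1 over GFP was 15.8 (95% exact interval 4.03 to 136, counting error only). With no low-count filter the edgeR adjusted p was 0.00503, and in 1 fit of all 16 libraries it was 0.000507. In the SW620 dnLEF1 libraries, WNT5A, which had 233 ± 24.1 CPM in SW480 dnLEF1, had 0 counts. The source of the FZD7 counts in SW620 dnLEF1 was not tested. In SW480, FZD7 had 56.9, 63.4, 65.7 and 66.4 CPM in dnLEF1 libraries and 36.1, 34.3, 31.0 and 33.1 CPM in GFP libraries. It rose 1.88-fold without overlap (log2 fold change 0.91 ± 0.07, edgeR adjusted p = 1.63e-07). The interaction was 2.79 ± 0.68 (edgeR adjusted p = 0.00378), and 5.17 (edgeR adjusted p = 0.000567) without SW620 GFP replicate 3, whose absence leaves that group at 0 counts and the fitted value without a bound. Between the GFP groups the ratio of SW480 over SW620 was 1433 (95% exact interval 396 to 11837).

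FZD6, which orients hairs in mice, moved in opposite directions in the lines. In SW620 it had 12, 9.88, 11.6 and 12.1 CPM in dnLEF1 libraries and 13.1, 18.7, 17.8 and 18.4 CPM in GFP libraries. The groups did not overlap, although GFP replicate 1 lay close to the dnLEF1 libraries (log2 fold change -0.57 ± 0.12, edgeR adjusted p = 0.0065). In SW480, FZD6 had 45.5, 51.6, 54.6 and 49.5 CPM in dnLEF1 libraries and 37.4, 36.2, 38.5 and 39.2 CPM in GFP libraries, a rise without overlap (log2 fold change 0.41 ± 0.07, edgeR adjusted p = 0.000239). SW620 minus SW480 gave a difference in effect of -0.98 ± 0.14 (edgeR adjusted p = 1.22e-05). FZD3 did not pass the test in SW620, at 33.8 ± 4.36 CPM in dnLEF1 and 35.7 ± 1.95 CPM in GFP libraries, and fell in SW480 to 18.1 ± 1.15 CPM in dnLEF1, against 26.5 ± 1.21 CPM in GFP libraries (edgeR adjusted p = 4.69e-05). Its interaction was 0.48 ± 0.12 (edgeR adjusted p = 0.00442).

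FZD2, a receptor that also binds WNT5A and the frizzled with the largest rise in SW480, had 1.68, 2.15, 1.89 and 1.74 CPM in SW620 dnLEF1 and 1.04, 1.61, 1.49 and 1.79 CPM in SW620 GFP. These overlapped and did not pass the test (log2 fold change 0.32 ± 0.21, edgeR adjusted p = 0.445). In SW480, FZD2 had 36.0, 39.6, 40.4 and 41.4 CPM in dnLEF1 libraries and 12.9, 15.3, 13.9 and 14.6 CPM in GFP libraries, a 2.78-fold rise without overlap (log2 fold change 1.48 ± 0.08, edgeR adjusted p = 2.43e-09). The interaction was -1.16 ± 0.19 (edgeR adjusted p = 7.79e-05). The 24 tested genes nearest to FZD2 also tended upward in SW480, with a median log2 fold change of 0.30 and 21 of 24 higher. Their part in the rise of FZD2, which was larger, was not tested.

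FZD1, a receptor of the beta-catenin branch, had 0.643, 0.982, 0.708 and 1.16 CPM in SW620 dnLEF1 and 0.635, 0.507, 0.958 and 0.581 CPM in SW620 GFP. The values overlapped, and it did not pass the test (edgeR adjusted p = 0.535). In SW480, FZD1 had 46.7, 53.8, 57.3 and 51.3 CPM in dnLEF1 libraries and 31.2, 28.6, 29.4 and 32.2 CPM in GFP libraries, a 1.73-fold rise without overlap (edgeR adjusted p = 1.06e-06). In the GFP libraries it was 45.8-fold lower in SW620 (edgeR adjusted p = 1.14e-13). FZD8, whose mouse ligand-binding domain was crystallised with a frog Wnt, had 0 counts in SW620 dnLEF1 and 4 in SW620 GFP. In SW480, FZD8 had 0.656, 0.635, 1.30 and 1.34 CPM in dnLEF1 libraries and 1.98, 2.10, 1.81 and 1.69 CPM in GFP libraries, which did not overlap (log2 fold change -0.94 ± 0.26, edgeR adjusted p = 0.00833). Beside FZD8, 19 of the 24 nearest tested genes were lower in SW480, with a median of -0.33, and their part in its fall was not tested. Between the GFP groups FZD8 had a log2 fold change of -5.18 ± 0.44 (edgeR adjusted p = 6e-08) on 4 counts in SW620.

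FZD9, which lies in the region deleted in Williams syndrome, and FZD4, the receptor that binds Norrin with LRP5 and TSPAN12, rose by smaller amounts in SW480. FZD9 had 3.12 ± 0.348 CPM in SW620 dnLEF1 and 2.35 ± 0.373 CPM in SW620 GFP, which did not pass the test (edgeR adjusted p = 0.197), and 5.91 ± 0.914 CPM in SW480 dnLEF1 and 3.92 ± 0.789 CPM in SW480 GFP, where the ranges overlapped (log2 fold change 0.60 ± 0.17, edgeR adjusted p = 0.00884). In SW620, 23 of the 24 tested genes nearest to FZD9 were higher in dnLEF1, with a median of 0.29 and 15 called higher. Of the 24 nearest to FZD1, 22 were higher, with a median of 0.32 and 13 called higher. Over all genes tested in SW620, 6.03% were called higher. Both frizzleds lie on chromosome 7 and had a log2 fold change of 0.39 in SW620, which did not pass the test. In SW480, 20 of 24 neighbours of WNT5B, 18 of WNT7A and 18 of FZD3 were lower, as these genes were. Neighbours of other genes called in SW480 went either way. Most moved against the gene for WNT11 (15 higher), FZD1 (17 lower) and WLS (18 lower). For LRP6, PORCN, VANGL2 and SFRP5, 14 of 24 moved with the gene. The part of neighbours in any of these values was not tested. FZD4 had 4.85 ± 0.863 CPM in SW620 dnLEF1 and 5.21 ± 0.605 CPM in SW620 GFP, and 12.2 ± 2.12 CPM in SW480 dnLEF1 and 9.79 ± 0.846 CPM in SW480 GFP (SW480 log2 fold change 0.32 ± 0.12, edgeR adjusted p = 0.041). This SW480 call was lost with replicates 2 and 3 summed, without any 1 of the 4 GFP libraries or without dnLEF1 replicate 2 or 3, with adjusted p of up to 0.158. FZD4 overlaps PRSS23 on the other strand, which had 133 CPM in SW480 dnLEF1 and 82.3 CPM in SW480 GFP, and reads of the pair cannot be told apart. FZD5, needed for Paneth cell maturation in mice, did not pass the test with dnLEF1 in either line. It had 45.9 ± 5.10 CPM in SW620 dnLEF1 and 45.7 ± 3.63 CPM in SW620 GFP, against 14.5 ± 1.87 CPM in SW480 dnLEF1 and 12.8 ± 1.34 CPM in SW480 GFP, and was 3.56-fold higher in SW620 GFP than in SW480 GFP (edgeR adjusted p = 1.2e-10).

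**Figure D4:**
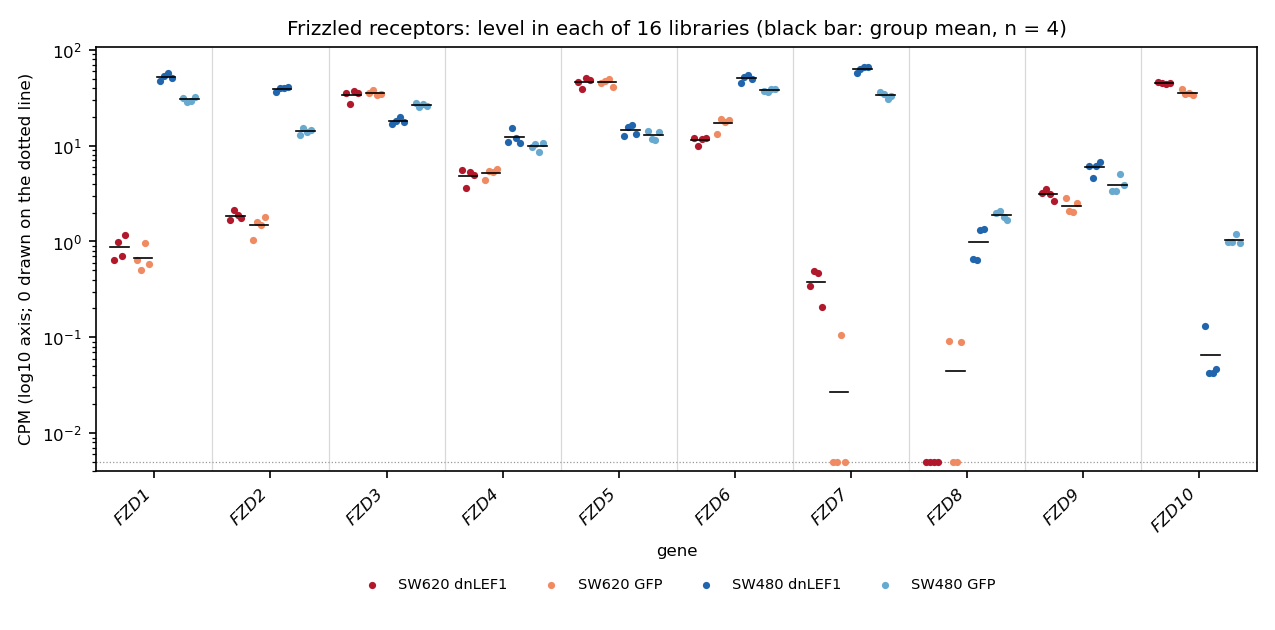
CPM of the 10 frizzled genes in each library on a log10 axis, with a bar at each group mean and values of 0 drawn on the dotted line. FZD10 is high in SW620 and near 0 in SW480 dnLEF1, FZD7 is the reverse, and FZD6 is lower in SW620 dnLEF1 but higher in SW480 dnLEF1 than in the GFP libraries of the same line.

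LRP5 and LRP6, the co-receptors that relay the signal to the beta-catenin destruction complex, were both higher in SW620. LRP5 had 366, 430, 434 and 423 CPM in SW620 dnLEF1 and 406, 429, 424 and 449 CPM in SW620 GFP, which overlapped (log2 fold change -0.05 ± 0.06, edgeR adjusted p = 0.752). In SW480, LRP5 had 108, 115, 114 and 96.5 CPM in dnLEF1 libraries and 100, 124, 122 and 117 CPM in GFP libraries, also overlapping (log2 fold change -0.09 ± 0.08, edgeR adjusted p = 0.353). Between the GFP groups it was 3.67-fold higher in SW620 (edgeR adjusted p = 6.69e-12). LRP6 had 158, 138, 186 and 179 CPM in SW620 dnLEF1 and 164, 193, 196 and 193 CPM in SW620 GFP, with overlap (log2 fold change -0.17 ± 0.09, edgeR adjusted p = 0.315). In SW480, LRP6 had 38.7, 49.4, 52.8 and 38.3 CPM in dnLEF1 libraries and 67.5, 58.0, 55.1 and 68.9 CPM in GFP libraries. It fell there without overlap, by a small amount (log2 fold change -0.47 ± 0.11, edgeR adjusted p = 0.00232). The difference in effect on LRP6 between the lines did not pass the test (0.31 ± 0.15, edgeR adjusted p = 0.145), and LRP6 was 2.97-fold higher in SW620 GFP than in SW480 GFP (edgeR adjusted p = 2.78e-10).

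ROR1 and ROR2, receptor kinases that bind WNT5A, were higher in SW480. ROR1 had 5.74, 5.53, 6.80 and 6.80 CPM in SW620 dnLEF1 and 3.94, 5.76, 6.34 and 3.84 CPM in SW620 GFP, which overlapped (log2 fold change 0.34 ± 0.17, edgeR adjusted p = 0.297). In SW480, ROR1 had 23.5, 26.5, 29.8 and 25.7 CPM in dnLEF1 libraries and 14, 11, 8.62 and 9.80 CPM in GFP libraries. It rose 2.42-fold without overlap (log2 fold change 1.28 ± 0.13, edgeR adjusted p = 1.64e-06), while the 24 tested genes nearest to it had a median of -0.40, with 18 lower. The effect in SW620 less that in SW480 was -0.93 ± 0.22 (edgeR adjusted p = 0.0033). ROR2 had 5 counts in SW620 dnLEF1 and 1 in SW620 GFP. In SW480, ROR2 had 18.7, 18.7, 16.5 and 17.1 CPM in dnLEF1 libraries and 18.3, 18.1, 16.5 and 15.8 CPM in GFP libraries, with overlap (log2 fold change 0.05 ± 0.09, edgeR adjusted p = 0.660). Between the GFP groups the ratio of SW480 over SW620 was 1464 (95% exact interval 262 to 57871). RYK, a receptor with an inactive kinase domain, had 86.6 ± 4.24 CPM in SW620 dnLEF1 and 84.7 ± 2.33 CPM in SW620 GFP (edgeR adjusted p = 0.830), and 129 ± 1.43 CPM in SW480 dnLEF1 and 118 ± 4.15 CPM in SW480 GFP. The SW480 groups did not overlap, the log2 fold change was 0.13 ± 0.06, and the edgeR adjusted p was 0.0696, with a call in DESeq2 (adjusted p = 0.032) and in 1 fit of all 16 libraries (adjusted p = 0.038).

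Both secretion genes rose in SW480. PORCN, the acyltransferase, had 40.9, 42.2, 36.8 and 39.6 CPM in SW620 dnLEF1 and 36.6, 33.6, 36.2 and 39.6 CPM in SW620 GFP, which overlapped (log2 fold change 0.13 ± 0.07, edgeR adjusted p = 0.352). In SW480, PORCN had 29.3, 28.0, 30.6 and 32.1 CPM in dnLEF1 libraries and 19.6, 22.0, 19.0 and 19.8 CPM in GFP libraries, without overlap (log2 fold change 0.58 ± 0.08, edgeR adjusted p = 3.08e-05). SW620 minus SW480 gave a difference in effect of -0.45 ± 0.10 (edgeR adjusted p = 0.00196). WLS, the carrier of acylated ligand, had 34.4, 36.6, 35.0 and 33.3 CPM in SW620 dnLEF1 and 30.8, 24.9, 28.3 and 24.4 CPM in SW620 GFP, without overlap (log2 fold change 0.36 ± 0.08, edgeR adjusted p = 0.0093). In SW480, WLS had 56.4, 61.8, 59.3 and 55.0 CPM in dnLEF1 libraries and 47.5, 53.7, 52.6 and 51.4 CPM in GFP libraries. These did not overlap either, but the log2 fold change was 0.18 ± 0.07 (edgeR adjusted p = 0.035), and the call was lost in 7 of 16 alternatives, with no low-count filter, with replicates 2 and 3 summed, and without GFP replicate 1, 3 or 4 or dnLEF1 replicate 2 or 3, with adjusted p of up to 0.1003. The difference in effect on WLS did not pass the test (0.18 ± 0.10, edgeR adjusted p = 0.199). In the GFP libraries PORCN was 1.81-fold higher in SW620 (edgeR adjusted p = 9.34e-08) and WLS was 1.91-fold lower in SW620 (edgeR adjusted p = 6.44e-08).

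VANGL1 and VANGL2, membrane proteins of planar polarity, differed from each other. VANGL1 had 58.2 to 59.5 CPM on average in all 4 groups and passed no test. VANGL2 had 1.46 ± 0.263 CPM in SW620 dnLEF1 and 2.00 ± 0.239 CPM in SW620 GFP, values that did not overlap but did not pass the test (log2 fold change -0.44 ± 0.20, edgeR adjusted p = 0.236). In SW480 it fell to 2.90 ± 0.498 CPM in dnLEF1 libraries, against 4.41 ± 0.691 CPM in GFP libraries (log2 fold change -0.60 ± 0.17, edgeR adjusted p = 0.00934), without overlap. SFRP5, a secreted ligand decoy often silenced in colon cancer, had 55.9, 73.2, 58.3 and 60.4 CPM in SW620 dnLEF1 and 87.6, 77.3, 73.1 and 63.2 CPM in SW620 GFP. The highest dnLEF1 library, replicate 2, lay above GFP replicates 3 and 4 (log2 fold change -0.28 ± 0.10, edgeR adjusted p = 0.102), and a call appeared with no low-count filter, with the replicate number as a block, and without GFP replicate 4 or dnLEF1 replicate 2 (adjusted p = 0.0152 to 0.048). In SW480, SFRP5 had 13.2, 12.8, 12.2 and 14.9 CPM in dnLEF1 libraries and 24.4, 39.6, 37.6 and 37.1 CPM in GFP libraries, a 2.61-fold fall without overlap (log2 fold change -1.38 ± 0.13, edgeR adjusted p = 1.08e-06). The interaction was 1.10 ± 0.18 (edgeR adjusted p = 9.4e-05). SFRP1 had 2 counts in SW620 dnLEF1 and none in the other groups.

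**Figure D5:**
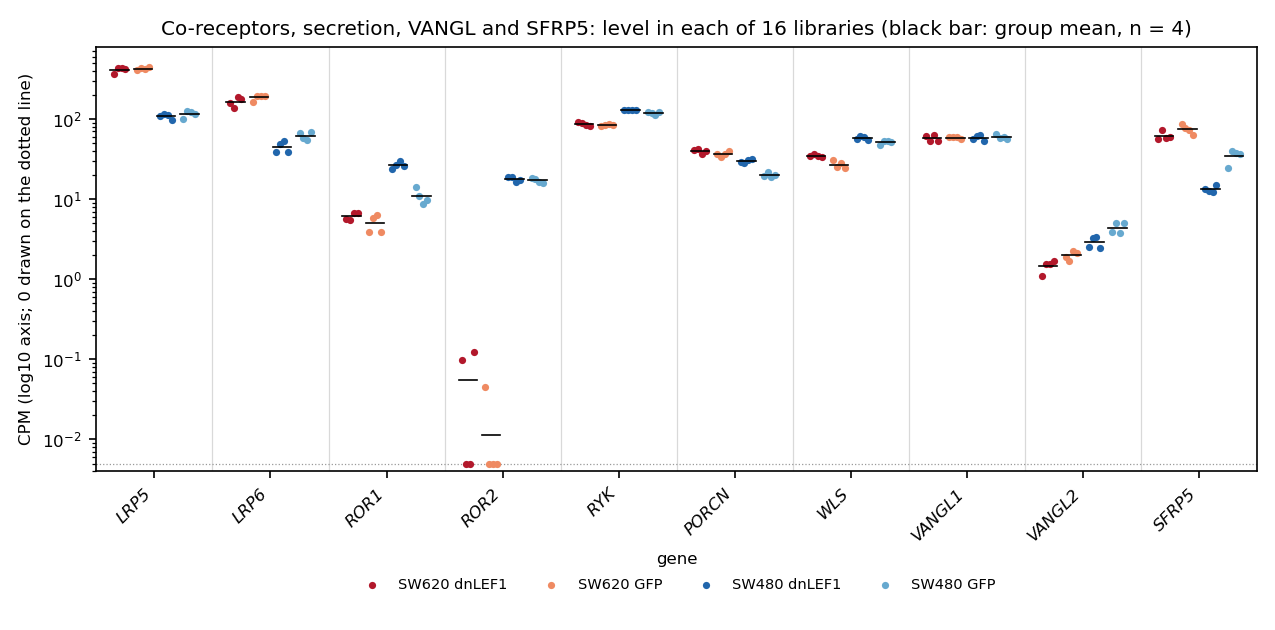
CPM of the co-receptors, ROR and RYK receptors, secretion genes, VANGL genes and SFRP5 in each library on a log10 axis, with a bar at each group mean and values of 0 drawn on the dotted line. LRP5 and LRP6 are higher in SW620, ROR1 and ROR2 are higher in SW480, and VANGL1 is level across the 4 groups.

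The neighbours of these genes in the pathway were described from 5 further lists of 100 genes in all. Their counts stand beside the shares over all genes, 6.03% higher and 2.43% lower in SW620 (8.46% in all) and 24.2% higher and 24.4% lower in SW480 (48.5% in all). Of 15 other secreted inhibitors and DKK receptors, 7 were tested in SW620, where APCDD1 rose and none fell, and 11 in SW480, where 7 rose and 3 fell (8.46% of all genes called in SW620 and 48.5% in SW480). FRZB, an SFRP relative, rose 18.4-fold in SW480 to 23.5 ± 8.79 CPM in dnLEF1, against 1.28 ± 0.671 CPM in GFP libraries (edgeR adjusted p = 5.88e-08). NOTUM, which removes the acyl group from ligands, fell to 9.46 ± 0.834 CPM in SW480 dnLEF1, against 95.1 ± 10.2 CPM in SW480 GFP (edgeR adjusted p = 6.06e-12). APCDD1, a membrane inhibitor, fell in SW480 to 110 ± 6.94 CPM in dnLEF1, against 700 ± 71.7 CPM in GFP libraries (edgeR adjusted p = 1.28e-11), and rose in SW620 to 21.6 ± 1.27 CPM in dnLEF1, against 16.9 ± 1.15 CPM in GFP libraries (edgeR adjusted p = 0.00967).

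Of 9 genes for R-spondins, their LGR receptors and the ligases that remove frizzleds from the surface, 5 were tested in each line. In SW620 only the ligase ZNRF3 passed the test, falling to 150 ± 11.7 CPM in dnLEF1, against 177 ± 5.38 CPM in GFP libraries (edgeR adjusted p = 0.0281). In SW480, LGR5, LGR6, RNF43 and ZNRF3 fell and LGR4 rose. ZNRF3 stood at 29.7 ± 3.93 CPM in SW480 dnLEF1 and 112 ± 5.07 CPM in SW480 GFP (edgeR adjusted p = 3.74e-10), and LGR4 at 21.2 ± 2.93 CPM in SW480 dnLEF1 and 11.2 ± 1.08 CPM in SW480 GFP (edgeR adjusted p = 8.26e-06). Both differed between the lines in the interaction (1.68 ± 0.11 for ZNRF3 and -1.21 ± 0.15 for LGR4, edgeR adjusted p = 1.91e-10 and 3.06e-06).

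Of 30 genes of the cytoplasmic relay and destruction complex, 25 were tested in SW620, with 1 higher and 3 lower (2.43% of all genes lower), and 27 in SW480, with 4 higher and 16 lower (24.4% of all genes lower). CTNNB1, which encodes beta-catenin, fell in both lines, to 537 ± 18.4 CPM in SW620 dnLEF1, against 617 ± 7.01 CPM in SW620 GFP (edgeR adjusted p = 0.0228), and to 753 ± 48.3 CPM in SW480 dnLEF1, against 1635 ± 91.7 CPM in SW480 GFP (edgeR adjusted p = 1.38e-08). Of 27 planar polarity and related genes, 23 were tested in SW620, with none higher and CELSR1 lower, and 26 in SW480, with 7 higher and 6 lower, a share close to the 48.5% of all genes. PRICKLE1, a partner of VANGL proteins, rose in SW480 to 8.37 ± 0.798 CPM in dnLEF1, against 1.09 ± 0.315 CPM in GFP libraries (edgeR adjusted p = 1.14e-08). Of 19 genes for ligand traffic and binding at the surface, 14 were tested in SW620, with 2 higher and none lower, and 16 in SW480, with 4 higher and 3 lower. TSPAN12, the partner of FZD4 in Norrin signalling, rose in SW620 to 13.8 ± 1.80 CPM in dnLEF1, against 7.62 ± 1.66 CPM in GFP libraries (edgeR adjusted p = 0.00201), and fell in SW480 to 3.74 ± 0.167 CPM in dnLEF1, against 14.2 ± 0.835 CPM in GFP libraries (edgeR adjusted p = 2.34e-09). In SW620 the median log2 fold change was 0.12 for the inhibitors, -0.04 for the R-spondin list, -0.06 for the relay, -0.01 for planar polarity and 0.002 for traffic. In SW480 it was 0.84 for the inhibitors, -1.61 for the R-spondin list, -0.29 for the relay, -0.02 for planar polarity and 0.03 for traffic, while the medians over all genes were near 0 in both lines.

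Of the markers of other cell types, the leukocyte sum differed without overlap between dnLEF1 and GFP libraries in both lines. The endothelial sum did so in SW480 only, and the fibroblast sum in neither line. The summed level of 6 leukocyte markers was 8.59 to 11.3 CPM in SW480 dnLEF1 and 4.90 to 6.25 CPM in SW480 GFP, that of 4 endothelial markers 2.19 to 3.79 and 0.434 to 1.37 CPM, and that of 8 fibroblast markers 14.9 to 38.0 and 8.89 to 17.6 CPM, the last with overlap. In SW480 dnLEF1, the leukocyte markers PTPRC and CD3E and the fibroblast markers DCN and LUM were at 0. There, 3 leukocyte markers (CD68, CD14 and LYZ), 1 endothelial (VWF) and 1 fibroblast marker (COL1A1) had a mean of at least 1 CPM. LUM had a mean of at least 1 CPM in SW480 GFP and in both SW620 groups. The 12 colon epithelium markers summed to 7090 to 8512 CPM in SW480 dnLEF1 and 10727 to 12493 CPM in SW480 GFP. In SW620 the ranges of that sum overlapped, at 8534 to 10835 CPM in dnLEF1 and 9935 to 12249 CPM in GFP libraries. The leukocyte sum did not overlap in SW620 either, at 5.97 to 6.998 CPM in dnLEF1 and 4.74 to 5.76 CPM in GFP libraries, with PTPRC and CD3E at 0 in both groups. The endothelial sums in SW620 were 1.11 to 1.97 CPM in dnLEF1 and 0.983 to 1.33 CPM in GFP libraries, and the fibroblast sums 29.2 to 32.6 CPM in dnLEF1 and 22.3 to 34.3 CPM in GFP libraries, both with overlap. The part of these markers in the results on ligands and receptors was not tested.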

How the data were processed

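The deposited files hold raw counts per gene symbol, 1 file per library, which the authors made with Trimmomatic, TopHat2 and HTSeq on hg38, per the submitters' processing notes, which also name DESeq2. For tool versions, annotation and strandedness of counting: not given in the sources used here. Counts of lines that name no gene were left out. Total gene counts ran from 17181204 to 26153506 per library. Every column was matched to a library.

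Each line's dnLEF1 and GFP libraries were fitted together, as were the GFP libraries of both lines, with edgeR 4.0.16 in R 4.3.3 (quasi-likelihood test, TMM, filterByExpr by group, Benjamini-Hochberg adjustment over all genes tested, threshold 0.05). The interaction used all 16 libraries. A log2 fold change is given with an approximate SE from its test statistic. Exact 95% intervals of ratios, and the floor of 3 counts over a group, cover counting error only. Levels per kb used GENCODE 44 exon lengths, and 22930 of 26485 symbols were placed on that annotation. Promoters came from RefSeq tables on GRCh38.p14. Alternatives were DESeq2 1.42.0, limma 3.58.1 (voom), DESeq2 size factors, no low-count filter, a minimum of 50 counts, all 16 libraries in 1 fit, a replicate block, each library left out, and, chosen after seeing the data, SW480 replicates 2 and 3 summed. The fits were tested on simulated data.

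The 40 genes, the pathway lists and the tests were chosen with earlier results of these data known. The rule was to print library values for up to 8 called genes per comparison with the largest change, plus LRP5, LRP6, PORCN and WLS, and up to 4 genes per pathway list by adjusted p. Library values of other genes, and RNF43, were added after values were seen.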

Additional observations from a re-analysis of the deposited data

Results flagged for a closer look

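In 8 of 98 groups of 4 libraries, 1 library stood apart by Dixon's criterion, where chance gives about 1 in 20. The high libraries were SW480 GFP replicate 1 for WNT9A at 4.19 CPM (others 2.37 to 2.64), SW620 dnLEF1 replicate 4 for WNT10A at 3.94 CPM (others 2.52 to 2.71) and SW480 GFP replicate 3 for FZD10 at 1.19 CPM (others 0.957 to 0.987). The low libraries were SW620 dnLEF1 replicate 3 for WNT11 at 0.787 CPM (others 1.23 to 1.29), SW620 GFP replicate 1 for FZD6 at 13.1 CPM (others 17.8 to 18.7) and for LRP6 at 163.9 CPM (others 193 to 196), SW620 dnLEF1 replicate 1 for LRP5 at 366 CPM (others 423 to 434), and SW480 GFP replicate 1 for SFRP5 at 24.45 CPM (others 37.1 to 39.6).

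The dnLEF1 effect differed between the lines by the edgeR interaction for 12 genes, given as SW620 minus SW480 on the log2 scale. It was above 0 for WNT5B (1.37), WNT6 (4.24), FZD3 (0.48), FZD7 (2.79, on 2 counts in SW620 GFP), FZD10 (4.2) and SFRP5 (1.10). It was below 0 for WNT10A (-0.71), WNT10B (-1.18), FZD2 (-1.16), FZD6 (-0.98), ROR1 (-0.93) and PORCN (-0.45).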

How the results depend on the processing

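No called gene changed direction in any setting. Among genes that did not pass the test, the sign changed in at least 1 setting for 9 in SW620, 3 in SW480, 1 between the GFP groups and 6 in the interaction. In all, 22 of 25 genes in SW620, 29 of 32 in SW480, 31 of 31 between the GFP groups and 29 of 33 in the interaction had the same call in every setting that tested them. Over left-out libraries, the genes higher and lower numbered 2 to 3 and 2 to 4 in SW620, 8 to 10 and 12 to 12 in SW480, 10 to 10 and 20 to 21 between the GFP groups, and 5 to 6 and 4 to 6 in the interaction. With SW480 replicates 2 and 3 summed, 5 genes were higher and 5 lower in the interaction and 10 and 21 between the GFP groups. WNT16 was called in the interaction by limma voom alone (adjusted p = 0.011). The ratios of WNT5A, FZD7 and ROR2 between the GFP groups rest on counts in 1 SW620 GFP library each (replicates 4, 3 and 1), without which that group is at 0. Interactions of genes at 0 to 5 counts in both SW620 groups (WNT5A, WNT7A, WNT9A, WNT16, FZD8 and ROR2) could not be measured, although they passed the count filter. Differences below 1 CPM were limited by depth.

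The labels give no pairing, and not every pair of same-numbered libraries correlated: same-numbered deviations correlated at -0.00455 to 0.252 in SW620, -0.0748 to 0.221 in SW480 and -0.011 to 0.148 between the GFP groups, and in SW620 3 of 4 libraries (1, 3 and 4), in SW480 1 of 4 and between the GFP groups 3 of 4 correlated best with their own number, a hint from the data and not from the design. With the replicate number as a block, 3 of these genes were higher and 4 lower in SW620 (SFRP5 added), 10 and 12 in SW480, 10 and 20 between the GFP groups, and 6 and 6 in the interaction, and over all genes 676 were lower in SW620, against 324 without the block.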
